A study of Mus musculus with 2 samples.

Results

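Kinesins and kinetochore proteins were followed in 2 mouse Th17 cultures, of the pathogenic and the non-pathogenic kind. The genes were chosen by name from the count table: all Kif genes with a number or c after Kif, all Cenp genes, Ska1 to Ska3, Spc24, Spc25, Ndc80, Nuf2, Mis12 and Dsn1. The rule found 73 of the 22036 genes with an identifier. By known role, 14 are mitotic kinesins, 15 are transport kinesins, 15 are other kinesins or a kinesin-binding protein, 17 belong to the inner kinetochore and centromere, 10 belong to the outer kinetochore or the Ska complex, and 2 are other Cenp proteins. Cenpe, a kinesin of the kinetochore, was counted once, with the mitotic kinesins.

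Each condition gave 1 library of polyadenylated RNA, made from CD4 T cells taken from lymph node and spleen in wild-type mice. Both cultures lasted 24 h on plates bearing antibodies to CD3 (10 μg/mL) and CD28 (5 μg/mL), and both contained IL-6 (20 ng/mL) and antibodies to IFNγ and IL-4. The pathogenic culture further received activin A (20 ng/mL), a ligand of the TGF-β family, and is called the activin A library here. The non-pathogenic culture received TGFβ1 (2 ng/mL) in its place and is called the TGFβ1 library. Pairs of values are given in that order. The labels do not give the age, sex or strain of the mice, or whether animals were pooled. With 1 library per condition there is no replicate check and no test, and every ratio compares these 2 libraries. Ranges printed with folds are 95% counting intervals, which do not cover differences between cultures.

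Kinesins are motors that use ATP to move along microtubules or to take microtubule ends apart. Mitotic kinesins build the spindle, move chromosomes and help to divide the cell, and their genes are mostly transcribed late in the cell cycle. Transport kinesins carry vesicles and organelles and are also present in cells that do not divide. The kinetochore is the protein structure that ties a centromere to spindle microtubules: the inner proteins sit on the centromeric nucleosome, and the outer proteins hold the microtubule. Activated T cells divide fast, so both kinds of motor are present in such cultures.

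Mitotic kinesins were higher with activin A, while transport kinesins were centred on a ratio of 1. Levels are given as CPM, the count relative to the scaled library total, and genes whose 2 libraries averaged 1 CPM or more were called measured. Of 13 measured mitotic kinesins, 12 had a ratio above 1 (activin A over TGFβ1), as did 49.4% of all 10597 measured genes. A difference of 1.5-fold or more toward activin A was seen in 5 of the 13 and in 7.20% of all genes. No mitotic kinesin differed by as much toward TGFβ1, where 5.76% of all genes did. Among the 8338 genes with a mean of 10 CPM or more these background shares were 4.37% and 3.32%. The median log2 ratio of CPM was 0.57 for the mitotic kinesins and −0.0045 for all measured genes. Summed, the mitotic kinesins held 815 and 562 CPM.

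Among 12 measured transport kinesins, 6 had a ratio above 1 and 6 below 1, with a median log2 ratio of 0.0062. None was 1.5-fold or more higher with activin A, and 3 were with TGFβ1. Their summed level was 641 and 661 CPM. The medians of the mitotic and transport kinesins were 0.56 apart on the log2 scale. The ranges overlapped: 10 of the 13 mitotic kinesins lay above the highest transport kinesin, and 5 of the 12 transport kinesins lay below the lowest mitotic kinesin. In RNA from whole cultures, fewer cells of a type and less RNA per cell cannot be told apart.

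**Figure D1:**
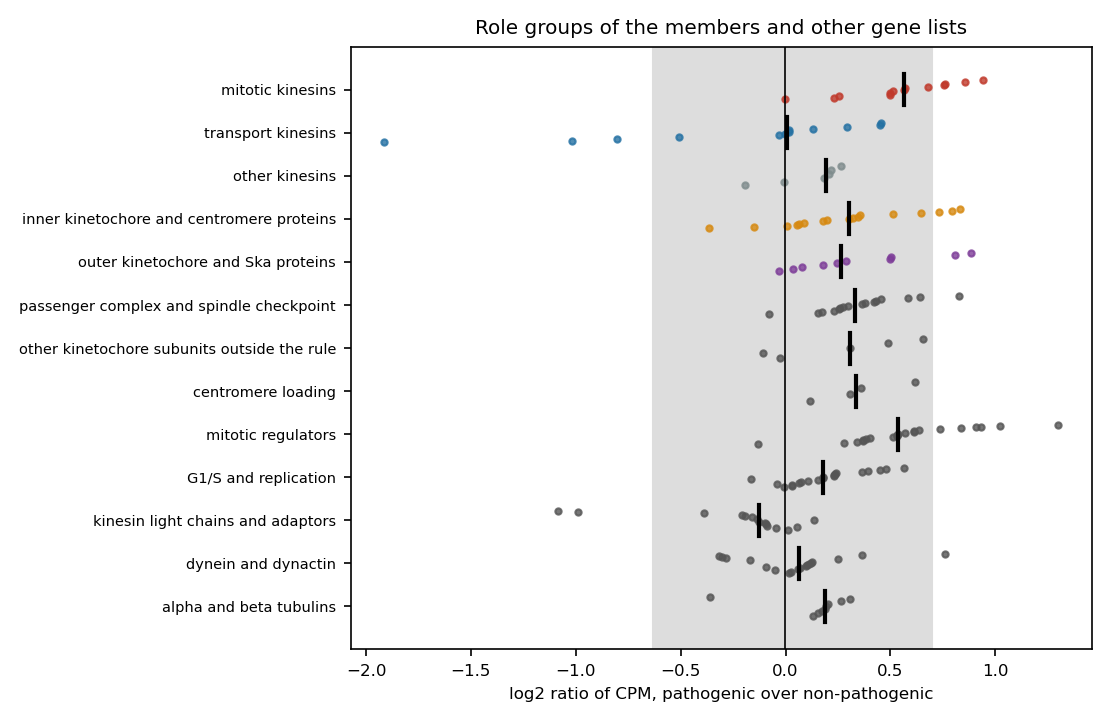
Log2 ratio of CPM, pathogenic over non-pathogenic, for each measured gene (points) of 5 role groups of members (coloured) and 8 other gene lists (dark grey). Short black bars are medians, and the grey band holds the central 90% of all measured genes, from −0.63 to 0.70. Mitotic kinesins and mitotic regulators have the highest medians, at 0.57 and 0.54, and 3 transport kinesins lie left of the band.

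Kif2c, a kinesin that depolymerises microtubules at the centromere, had the highest CPM ratio of all measured members (ENSMUSG00000028678, chromosome 4, 117159639 to 117182639). By FPKM its log2 ratio was 0.93, below Cenpw at 1.002 and Spc24 at 0.94. It had 42.3 and 22.02 CPM, on 1309 and 736 counts, and was 1.92-fold higher with activin A (1.75 to 2.11). Of all measured genes, 2.75% had a higher ratio. Among the mitotic kinesins, Kif23, Kif14 and Kif20a, each with a part in cytokinesis, had the next highest ratios. Kif23, a part of the centralspindlin complex, had 47.2 and 26.1 CPM and was 1.81-fold higher (1.66 to 1.97). Kif14, a kinesin needed to complete cytokinesis, had 29.6 and 17.4 CPM and was 1.69-fold higher (1.53 to 1.88). Kif20a, which carries the passenger complex to the midzone, had 70.6 and 41.8 CPM and was 1.69-fold higher (1.58 to 1.81). Exons of Kif20a and Cdc23 overlap on opposite strands over 1271 bases, and the labels describe no step that marks the strand.

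Kif15, which helps to keep the spindle bipolar, had 110.8 and 69.2 CPM, a 1.60-fold ratio (1.52 to 1.69). It was the last of the 5 mitotic kinesins past 1.5-fold. Its interval overlapped those of Kif23, Kif14 and Kif20a above it and those of Kif22, Kif18b and Kifc1 below it. Kif11, the motor that pushes the spindle poles apart, was the most abundant mitotic kinesin at 164.0 and 116.3 CPM, a 1.41-fold ratio (1.35 to 1.47). Kif22, a chromosome arm motor, had 52.2 and 35.2 CPM, a 1.48-fold ratio (1.38 to 1.603) just under the 1.5-fold line. Kif18b, a motor of astral microtubules, lay beside it at 1.48-fold (1.34 to 1.64). Cenpe, the kinesin that carries chromosomes to the spindle equator, had 77.4 and 54.8 CPM, a 1.41-fold ratio (1.33 to 1.501), and Kifc1, a minus-end motor that focuses spindle poles, was 1.43-fold higher (1.31 to 1.56).

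At the low end, Kif4, another chromosome arm motor that also acts in the midzone, had 55.5 and 46.5 CPM and was 1.19-fold higher with activin A (1.11 to 1.28). Kif20b, a relative of Kif20a and Kif23 that also acts in cytokinesis, had 75.1 and 64.0 CPM, a 1.17-fold ratio (1.11 to 1.24). Kif18a, which dampens chromosome movements at the spindle equator, had an interval that held a ratio of 1, at 20.3 and 20.4 CPM and a log2 ratio of −0.0049 (−0.16 to 0.15). Members of a kinesin family were thus not alike: the intervals of Kif18a and Kif18b did not overlap, and neither did those of Kif20b and Kif23. The last mitotic kinesin, Kif2b, had no count in either library, which allows up to 3 counts in each.

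**Figure D2:**
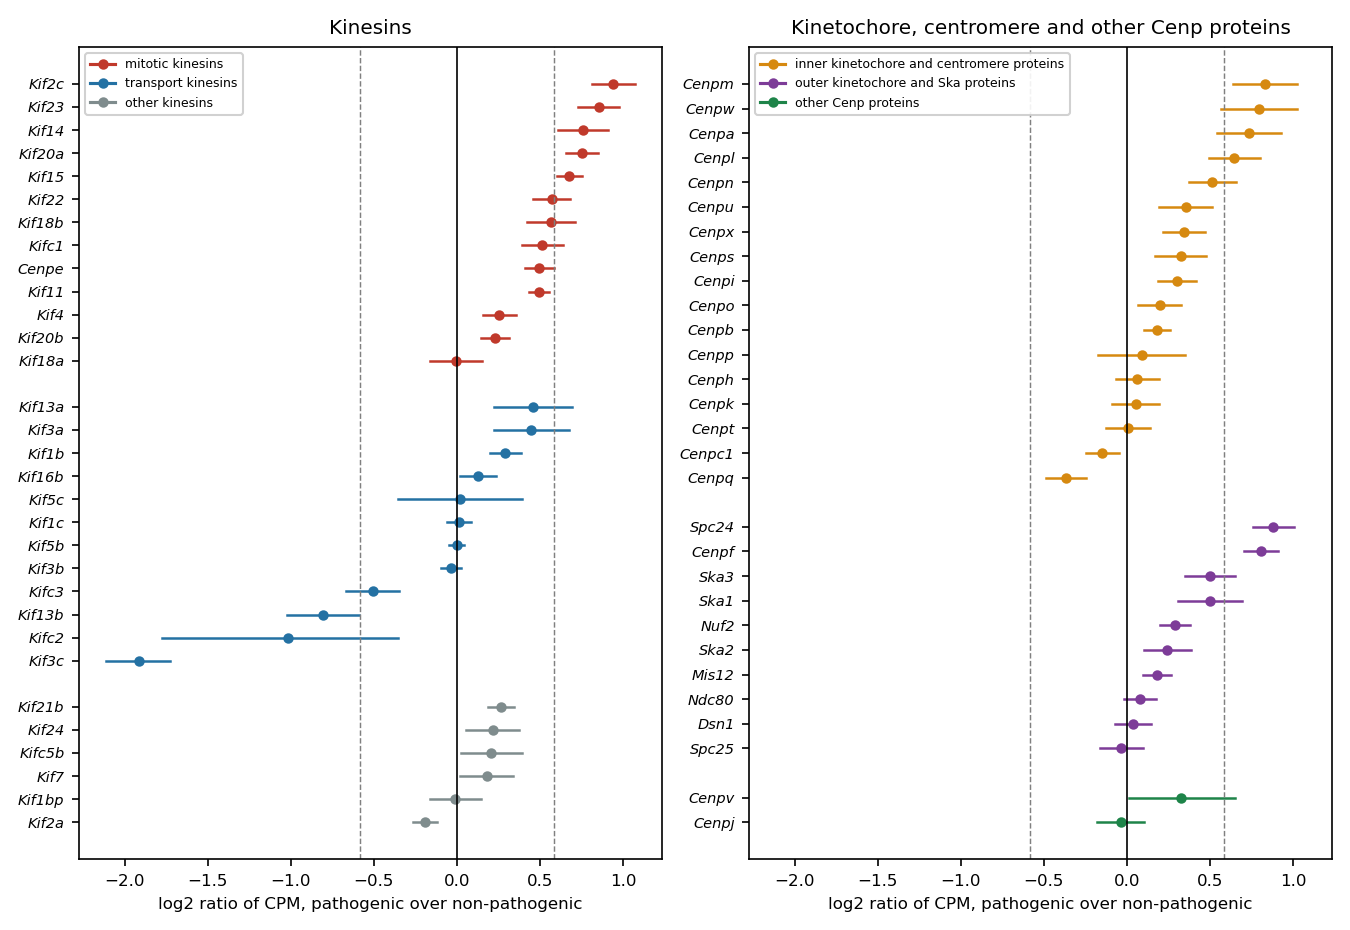
Log2 ratio of CPM, pathogenic over non-pathogenic, of the 60 measured members (points) with 95% counting intervals (lines), kinesins on the left and other members on the right. The solid line is a ratio of 1 and the dashed lines are 1.5-fold. Of the 13 mitotic kinesins, 12 lie right of the solid line with their whole interval, and Kif3c lies farthest left at −1.91.

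Promoters of the mitotic kinesins are shown because genes transcribed late in the cell cycle are known to carry a short element near their start site, the cell cycle homology region, often with CCAAT boxes upstream. Windows of 300 bases, from 250 before to 50 after the annotated start, were taken from the RefSeq promoter table for build GRCm38.p6, which held 61 of the 73 members. The letters TTTGAA and CCAAT were searched on both strands. Each line below gives 120 bases before to 30 after the start, on the strand of the gene, with matches in capitals (TTCAAA and ATTGG are the same letters on the other strand). The first 4 genes are mitotic kinesins with a match close to the start site (Kif23, chr9:61946770-61946919, minus strand; Kif11, chr19:37376262-37376411, plus strand; Kif22, chr7:127042391-127042540, minus strand; Kif18b, chr11:102925095-102925244, minus strand). Then come Cenpf of the outer kinetochore (chr1:189688057-189688206, minus strand), Kif20b, whose ratio was small (chr19:34922238-34922387, plus strand), and 2 transport kinesins without a TTTGAA match (Kif3b, chr2:153291296-153291445, plus strand, and Kif3c, chr12:3365012-3365161, plus strand).
Kif23: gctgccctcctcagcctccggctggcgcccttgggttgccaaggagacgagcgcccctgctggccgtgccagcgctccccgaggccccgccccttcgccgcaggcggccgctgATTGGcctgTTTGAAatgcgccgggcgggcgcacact
Kif11: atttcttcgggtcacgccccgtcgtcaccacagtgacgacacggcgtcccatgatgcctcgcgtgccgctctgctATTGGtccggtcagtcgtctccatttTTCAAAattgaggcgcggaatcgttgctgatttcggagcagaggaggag
Kif22: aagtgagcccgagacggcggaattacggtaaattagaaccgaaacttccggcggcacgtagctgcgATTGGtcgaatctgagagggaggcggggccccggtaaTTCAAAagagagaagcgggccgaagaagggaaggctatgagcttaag
Kif18b: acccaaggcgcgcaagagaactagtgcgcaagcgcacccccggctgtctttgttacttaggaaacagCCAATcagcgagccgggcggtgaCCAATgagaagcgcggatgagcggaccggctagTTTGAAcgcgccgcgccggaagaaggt
Cenpf: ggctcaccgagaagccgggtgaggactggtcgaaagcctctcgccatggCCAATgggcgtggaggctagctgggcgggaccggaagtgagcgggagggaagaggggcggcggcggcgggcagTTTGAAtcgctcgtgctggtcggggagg
Kif20b: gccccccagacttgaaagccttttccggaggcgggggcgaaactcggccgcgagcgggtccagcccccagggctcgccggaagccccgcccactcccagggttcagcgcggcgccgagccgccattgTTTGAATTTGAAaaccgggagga
Kif3b: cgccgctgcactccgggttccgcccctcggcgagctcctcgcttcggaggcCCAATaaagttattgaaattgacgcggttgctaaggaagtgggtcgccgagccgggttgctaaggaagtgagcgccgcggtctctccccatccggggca
Kif3c: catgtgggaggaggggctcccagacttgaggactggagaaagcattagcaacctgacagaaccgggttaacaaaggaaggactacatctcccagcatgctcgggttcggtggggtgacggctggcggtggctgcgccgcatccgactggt

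TTTGAA was present in 10 of 12 promoters of measured mitotic kinesins, or 83.3%, and in none of 9 promoters of 8 measured transport kinesins. Kif5b, Kif13b, Kifc2 and Kifc3 were not searched. The share was 17.9% over all 32851 promoters of the table and 11.8% over the 10740 promoters of measured genes. Within 50 bases of the start site, 8 of the 12 mitotic kinesin promoters held it, against 4.94% of all promoters. CCAAT was present in 8 of the 12 mitotic kinesin promoters, in 4 of the 9 transport kinesin promoters and in 37.4% of all promoters. Among kinetochore genes, 8 of 28 promoters held TTTGAA and 19 of 28 held CCAAT. By GENCODE positions, the windows of Kif2c and Kif14, both counted with TTTGAA, lie inside the gene and not at its start. The Kif2c window is chr4:117178723-117179022 on the minus strand, and the gene starts at 117182639. The Kif14 window is chr1:136467598-136467897 on the plus strand, and the gene starts at 136466343. All matches counted here are letters in a window and were not tested as sites.

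The median ratio was higher among the members with a match, a difference that was not tested. The 18 measured mitotic kinesins and kinetochore proteins with TTTGAA in the window had a median log2 ratio of 0.57, from −0.034 to 0.94, and 8 of them were at least 1.5-fold higher with activin A. Kif2c and Kif14, whose windows lie inside the gene, are among these 8. The 15 of the 18 with a match within 50 bases of the start had a median of 0.51, and 5 were at least 1.5-fold higher with activin A. The 19 with a promoter in the table and no match had a median of 0.18, from −0.37 to 0.83, and 1 of them, Cenpm, was at least 1.5-fold higher there. Kif20a and Spc24, both at least 1.5-fold higher with activin A, and Ska1 were not searched and are in neither group. The groups with and without a match overlapped widely. They also differ in role: 10 mitotic kinesins had a match and 2 had none. Among kinetochore proteins alone, the median was 0.58 for the 8 with a match and 0.18 for the 17 without. Ratios varied among members with a match. Ndc80 and Spc25 hold TTTGAA at 30 and 25 bases after the start and had log2 ratios of 0.079 and −0.034. In Kif20b the letters stand side by side at 8 and 14 bases after the start, and its log2 ratio was 0.23.

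**Figure D3:**
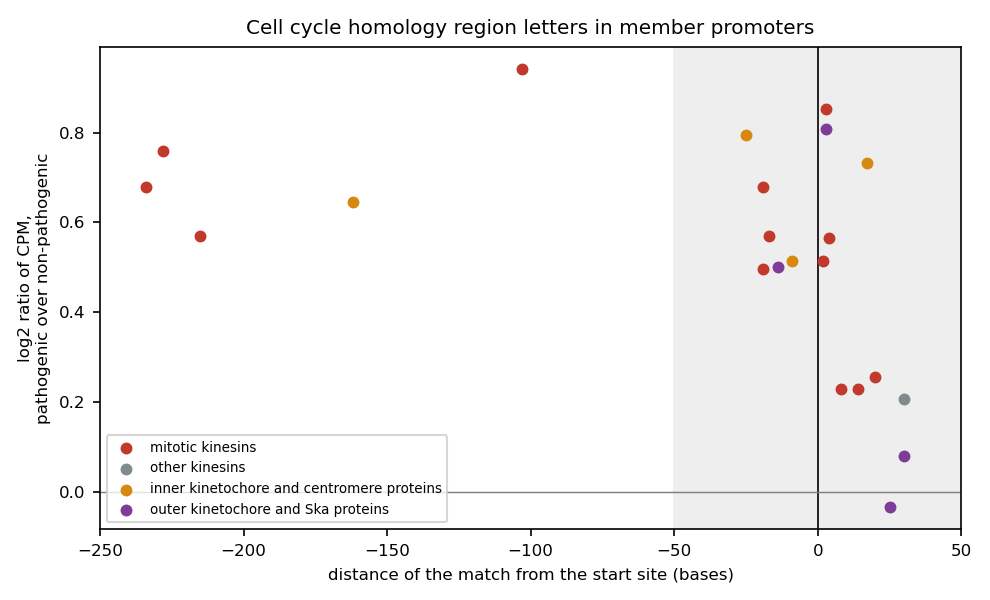
Distance of each cell cycle homology region match from the annotated start site, in bases, against the log2 ratio of CPM of that gene, coloured by role group. Negative distances are upstream, the shaded band is within 50 bases of the start, and a gene with several matches has several points. No transport kinesin appears, and the matches of Ndc80 and Spc25 lie downstream of the start with log2 ratios near 0.

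Of the 12 measured transport kinesins, 4 had an interval above 1, 4 below 1 and 4 that held it. This was near the shares of all genes, of which 33.0% had one above and 34.0% one below. Kif5b, the ubiquitous heavy chain of kinesin-1, was the most abundant kinesin by CPM at 236.1 and 236.4 CPM. Its log2 ratio was −0.0018, with a counting interval of −0.048 to 0.044. By FPKM, which is per transcript length, it made up 98.5% and 98.4% of the kinesin-1 heavy chains. Kif5c, a heavy chain known mostly from neurons, had 119 and 127 counts. Kif3b of kinesin-2, at 133.9 and 137.1 CPM, and Kif1c, a vesicle motor, at 98.8 and 97.8 CPM, also had intervals that held a ratio of 1.

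Other transport motors were somewhat higher with activin A. Kif1b, a motor of mitochondria and vesicles, had 64.1 and 52.4 CPM, a 1.22-fold ratio (1.15 to 1.31). Kif13a, an endosome motor, had 10.9 and 7.93 CPM, a 1.37-fold ratio (1.17 to 1.62), and Kif3a, the partner of Kif3b, had 12.1 and 8.83 CPM, a 1.37-fold ratio (1.17 to 1.60). By FPKM the log2 ratios were smaller, at 0.13 in place of 0.46 for Kif13a and 0.23 in place of 0.45 for Kif3a. Kif16b, a motor of early endosomes, was 1.09-fold higher (1.01 to 1.18).

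Kif3c, a kinesin-2 motor that can pair with Kif3a in place of Kif3b, had the largest difference of all measured members (ENSMUSG00000020668, chromosome 12, 3365132 to 3406494). It had 8.76 and 33.1 CPM, on 271 and 1106 counts, and was 3.77-fold higher with TGFβ1 (3.30 to 4.33). Of all measured genes, 0.349% had a lower ratio. By FPKM its levels were 1.85 and 4.47, and the log2 ratio was −1.23 in place of −1.91 by counts. Its FPKM made up 6.97% and 15.4% of the kinesin-2 motors, while Kif3b made up 78.5% and 73.5%. Exons of Kif3c overlap those of the antisense gene 1110002L01Rik over 2617 bases, and without strand the reads of such a pair cannot be told apart.

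Kifc3, Kif13b and Kifc2 were the other transport kinesins with an interval below 1. Kif13b, a vesicle motor, had 8.73 and 15.3 CPM and was 1.75-fold higher with TGFβ1 (1.51 to 2.03). By FPKM, at 1.36 and 1.51, its log2 ratio was −0.14 in place of −0.80. The quotient of count to FPKM, which follows the length assigned to a gene, was 1.57 times as large with TGFβ1 for Kif13b and 1.56 times for Kif3c, where the central 90% of genes lay between 0.946 and 1.08. Kifc3, a minus-end motor, had 17.8 and 25.2 CPM and was 1.42-fold higher with TGFβ1 (1.27 to 1.58). Kifc2, another minus-end motor, was 2.03-fold higher there (1.28 to 3.42) on 26 and 58 counts. Kif3c and Kifc2 were the 2 measured members that differed 2-fold or more, where 1.95% of all genes differed 2-fold or more toward TGFβ1 and 2.25% toward activin A.

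**Figure D4:**
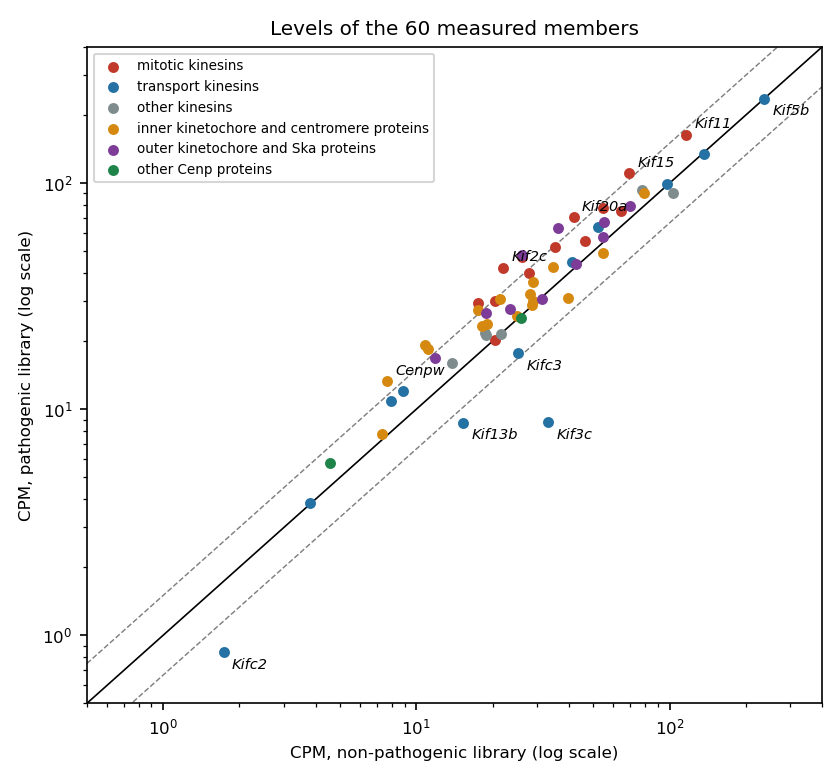
CPM of the 60 measured members in the pathogenic (vertical) and non-pathogenic (horizontal) library on log axes, coloured by role group. The solid line marks equal levels and the dashed lines 1.5-fold. Kif5b, the most abundant at 236.1 and 236.4 CPM, lies on the solid line, most mitotic kinesins lie above it, and Kif3c lies far below it at 8.76 and 33.1 CPM.

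Light chains and adaptors that link transport kinesins to cargo were lower with activin A more often than higher. Of 15 measured genes, 12 had a ratio below 1, as did 5357 of all 10597. A difference of 1.5-fold or more toward TGFβ1 was seen in 2, against 5.76% of all genes, and none differed as much toward activin A, against 7.20%. The median log2 ratio was −0.13. The light chain genes Klc3, at 126 and 290 counts, and Klc4, at 160 and 344 counts, were 2.12-fold (1.72 to 2.65) and 1.98-fold (1.64 to 2.42) higher with TGFβ1. Kifap3, named as the accessory subunit of kinesin-2, had a log2 ratio of −0.094 (−0.30 to 0.11). The minus-end motor dynein and its cofactor dynactin had a median of 0.065 over 18 measured genes, and the α and β tubulins a median of 0.19 over 9.

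The 6 measured genes with other or mixed roles, among them the kinesin-binding Kif1bp, had a median log2 ratio of 0.19, with an interval above 1 in 4 and below 1 in 1. Of all genes, 33.0% had an interval above 1 and 34.0% one below. With all counts halved, the intervals of Kif24, Kif7 and Kifc5b held a ratio of 1. Kif21b, which limits microtubule growth, had 93.4 and 77.6 CPM, a 1.202-fold ratio (1.14 to 1.27). Kif2a, a relative of Kif2c that also acts outside mitosis, had 90.2 and 103.2 CPM and was 1.14-fold higher with TGFβ1 (1.09 to 1.203). The interval of Kif2a thus lay below 1 and that of Kif2c above it. With a trend in transcript length and GC content removed, the log2 ratio of Kif2a was nearer to 0, at −0.086 in place of −0.19. Kif2a shares 1229 exonic bases with Dimt1 on the other strand. Kif24, a motor of centrioles, was 1.16-fold higher with activin A (1.04 to 1.30) and Kif7, a cilium protein of Hedgehog signalling, 1.13-fold (1.02 to 1.27). Kif1bp, which binds and inhibits kinesins, had 21.5 and 21.7 CPM. Kifc5b, a close copy of Kifc1, had 16.0 and 13.9 CPM, a 1.15-fold ratio (1.02 to 1.31), and its values and those of Kifc1 are uncertain because reads can be split between copies. Their summed counts gave a log2 ratio of 0.42 (0.32 to 0.52).

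Kinetochore proteins were shifted toward activin A, to unequal degrees. Of 27 measured genes, 24 had a ratio above 1, as did 49.4% of all genes, and 18 had a counting interval above 1, where 33.0% of all genes did. The interval lay below 1 for 2, where 34.0% of all genes had one below 1. A difference of 1.5-fold or more toward activin A was seen in 6, against 7.20% of all genes, and none differed as much toward TGFβ1, against 5.76%. The median log2 ratio was 0.30 for the 17 inner and 0.27 for the 10 outer proteins. Short transcripts were higher with activin A over all genes: of 5 equal groups by transcript length, the shortest had a median log2 ratio of 0.11, and the others lay between −0.050 and −0.0051. With a trend in transcript length and GC content removed, the median of the inner proteins was 0.14 and that of the outer proteins 0.36. The inner proteins did not fall as a group, since members moved both ways. Cenpx and Cenps went from 0.34 and 0.32 to 0.038 and 0.10, while Cenpw and Cenpl went from 0.79 and 0.64 to 0.92 and 0.74.

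In the inner kinetochore, Cenpa, the histone H3 variant that marks the centromere, had 18.5 and 11.1 CPM, a 1.66-fold ratio (1.46 to 1.90). Cenpc1, the protein that links the Cenpa nucleosome to the outer kinetochore, went the other way at 49.0 and 54.4 CPM, 1.11-fold higher with TGFβ1 (1.04 to 1.19). Cenpb, which binds a repeat of satellite DNA, was 1.13-fold higher with activin A (1.07 to 1.195). The intervals of these 3 centromere proteins did not overlap.

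The remaining inner proteins form subcomplexes of the constitutive network on the centromere, and the members of one subcomplex differed from each other. Cenpm had 19.3 and 10.8 CPM, a 1.78-fold ratio (1.56 to 2.03). By CPM this was the highest of the inner proteins, but with the length and GC trend removed its log2 ratio was 0.63, below Cenpw at 0.92 and Cenpa at 0.77, and by FPKM Cenpw was higher. Its partners Cenph, at 30.2 and 28.9 CPM, and Cenpk, at 25.9 and 25.0 CPM, had intervals that held a ratio of 1, and Cenpi was 1.23-fold higher (1.14 to 1.34). Cenpw, a histone-fold protein, had 13.4 and 7.69 CPM, a 1.73-fold ratio (1.48 to 2.04), while its partner Cenpt had 28.8 and 28.7 CPM. Cenpl and Cenpn, which form a pair that reads the Cenpa nucleosome, had overlapping intervals, at 1.56-fold (1.41 to 1.74) and 1.43-fold (1.295 to 1.58).

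In the Cenpo, Cenpp, Cenpq and Cenpu group the ratios went both ways. Cenpq had 30.9 and 39.9 CPM and was 1.29-fold higher with TGFβ1 (1.19 to 1.402). Cenpu was 1.28-fold higher with activin A (1.15 to 1.43), on exons that overlap those of Primpol over 1069 bases on the other strand. The summed counts of the 4 genes gave a log2 ratio of 0.011 (−0.063 to 0.084). Cenpx and Cenps, short histone-fold genes, were 1.27-fold (1.16 to 1.38) and 1.25-fold (1.12 to 1.39) higher with activin A. Their log2 ratios were 0.34 and 0.32, or 0.038 and 0.10 with the length and GC trend removed. By FPKM, Cenpx was the most abundant of all members, at 49.3 and 39.6.

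Subunits of the Ndc80 complex, the rod that holds the microtubule, also differed from each other. Spc24, at its inner end, had 48.1 and 26.1 CPM, a 1.84-fold ratio (1.695 to 2.01). Its direct partner Spc25 had 30.7 and 31.4 CPM, with a log2 ratio of −0.034 (−0.16 to 0.094). At the microtubule end, Nuf2 had 67.3 and 55.1 CPM, a 1.22-fold ratio (1.15 to 1.30), and Ndc80 had 57.7 and 54.6 CPM, with a log2 ratio of 0.079 (−0.016 to 0.17). By FPKM, the 4 subunits stood between 15.2 and 22.3 with TGFβ1, where Spc24 was the lowest. With activin A they stood between 19.4 and 29.4, and Spc24 was the highest.

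**Figure D5:**
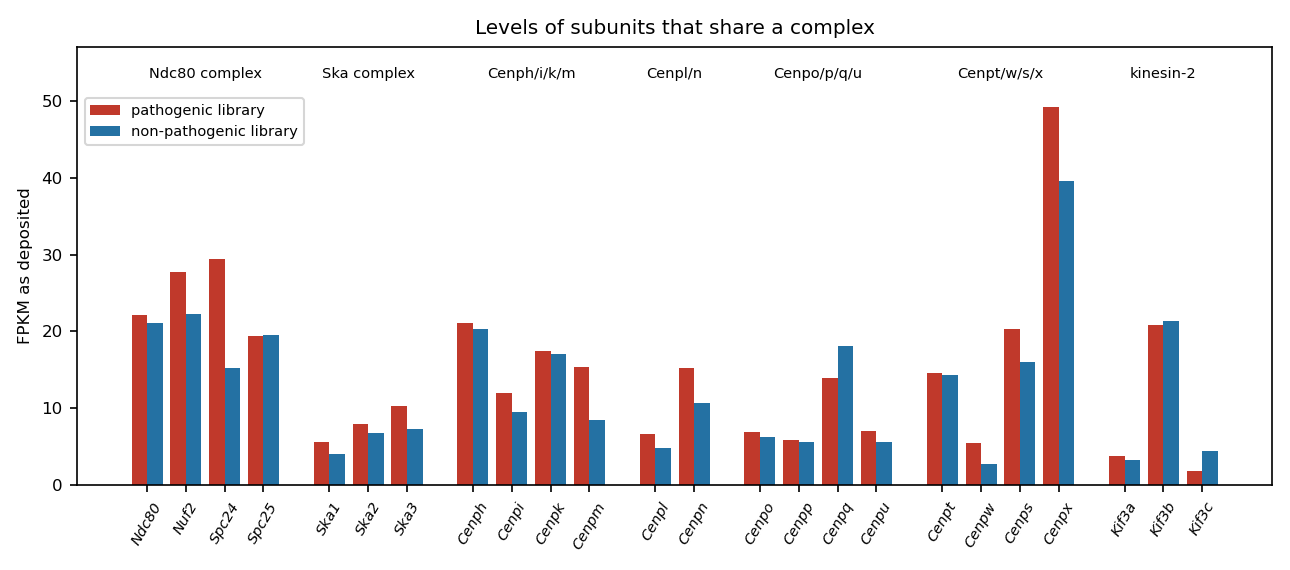
FPKM as deposited, a level per transcript length, for subunits of kinetochore complexes and for kinesin-2 motors in the pathogenic, activin A (red) and non-pathogenic, TGFβ1 (blue) library. Each bar is 1 library with no error. Spc24 stands at 29.4 and 15.2 FPKM beside Spc25 at 19.4 and 19.5, Cenpq is higher with TGFβ1, and Kif3c is higher there at 1.85 and 4.47.

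Cenpf, a large protein of the outer corona, had 63.6 and 36.3 CPM, a 1.75-fold ratio (1.63 to 1.88). The Ska complex, which keeps kinetochores on shrinking microtubule ends, was higher with activin A in all 3 subunits. Ska3 had 26.7 and 18.9 CPM, a 1.41-fold ratio (1.27 to 1.57), Ska1 had 16.8 and 11.9 CPM, a 1.41-fold ratio (1.24 to 1.61), and Ska2 was 1.18-fold higher (1.07 to 1.31). Of the Mis12 complex, the platform of the outer kinetochore, Mis12 was 1.13-fold higher with activin A (1.07 to 1.199) and Dsn1 had 43.9 and 42.8 CPM. Cenpj, a centriole protein, had 25.3 and 26.0 CPM, and Cenpv, which binds microtubules, had 5.76 and 4.58 CPM, a 1.26-fold ratio (1.01 to 1.57).

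Other genes of mitosis that the naming rule leaves out were also higher with activin A. Of 21 mitotic regulators, 20 had a ratio above 1, against 49.4% of all genes, with a median log2 ratio of 0.54. A difference of 1.5-fold or more toward activin A was seen in 9, against 7.20% of all genes, and 2 of these reached 2-fold, against 2.25%. The same shares of all genes apply to the lists that follow. Ube2c, the ubiquitin-conjugating enzyme of mitotic exit, was 2.46-fold higher (2.21 to 2.75), on 1102 and 483 counts, and Espl1, the separase that cuts cohesin, was 2.03-fold higher (1.91 to 2.16). Racgap1, the partner of Kif23 in centralspindlin and named after its value was seen, was the exception, with a log2 ratio of −0.13 (−0.20 to −0.062). Of 16 genes of the passenger complex and spindle checkpoint, 15 had a ratio above 1 and 2 reached 1.5-fold, Aurkb at 1.78-fold (1.66 to 1.90) and Birc5 at 1.56-fold (1.46 to 1.66), with a median of 0.33. The 5 kinetochore subunits with other names had a median of 0.31, from −0.11 for Zwint to 0.65 for Knl1, the scaffold that recruits checkpoint proteins. The 4 genes that load Cenpa had a median of 0.33. Genes of G1/S and replication were nearer to 1, with 17 of 20 above 1, none apart by 1.5-fold and a median of 0.18.

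A further 13 members were under 1 CPM and entered no median. Of these, Kif1a, Kif2b, Kif6, Kif12, Kif19a and Kif21a had no count in either library. Kif17 had 7 and 0 counts, 2.52-fold higher with activin A against a floor of 3 counts per library, but its counting interval starts lower, at 1.56-fold. It shares 74 exonic bases on the same strand with Sh2d5, which had 181 and 78 counts. Kif27 had 8 and 0 counts, 2.88-fold higher against the same floor, with an interval that starts at 1.84-fold. Kif5a had 10 and 18 counts, Kif9 25 and 24, Kif26a 4 and 2, Kif26b 2 and 3, and Kif28 1 and 1, each with an interval that holds a ratio of 1.

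The libraries held 30877656 and 33470161 counts on named genes. Defining genes of CD4 T cells were present, with 7 of 8 listed genes measured and a summed level of 2613 and 2635 CPM. Genes of CD8 T cells summed to 1.91 and 1.89 CPM, B cell genes to 0.808 and 0.180, myeloid genes to 4.24 and 4.58, NK cell genes to 0.129 and 0, and erythroid genes to 1.07 and 1.56. Pax5, Csf1r, Adgre1, Ncr1 and Klrb1c had no count. The part of such cells in the ratios of the members was not tested. Of the 60 measured members, 46 had a counting interval that left out a ratio of 1, 39 above and 7 below it, where 33.0% of all genes had one above and 34.0% one below. With all counts halved, 41 had an interval that left out 1, a step that allows for fragments counted more than once. Those that no longer did were Cenpv, Kif16b, Kif24, Kif7 and Kifc5b. Exons of 8 measured members overlap another gene over at least 500 bases.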

How the data were processed

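RNA was measured in 2 libraries, 1 per condition. The authors deposited whole-number counts per gene and FPKM values, fragments relative to transcript length and library size, per the file headers. Submitters' processing notes name mm10 as the build. Aligner, counting program and annotation: not given in the sources used here. Blank rows (10), rows of overflowed text (10) and 1646 features without a gene name were left out, the last with 2.50% and 2.90% of counts. Library sizes were scaled with edgeR's TMM factors (version 4.0.16), which were 1.00 in both libraries. Log2 ratios of CPM used a prior count of 1 in proportion to library size. Exact Clopper-Pearson 95% intervals of the share of counts in the activin A library (SciPy 1.17.1) cover counting error only, because each condition has 1 library. No molecular identifiers marked single molecules. Values of 2 were 3.88 and 4.57 times as frequent as values of 1 in the count table, so intervals may be too narrow. With 1 library per condition no p-value was computed.

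Members named with their values were the 4 highest and 4 lowest ratios and the 3 highest FPKM levels of each role group, all measured members that differed 2-fold or more, Kif3c and Cenpe; other members complete their complex or family. Members, role groups and lists were chosen with earlier results of these data known. Positions and each gene's longest transcript are from GENCODE M21, and promoters are from RefSeq (GRCm38.p6). The length and GC trend was a polynomial of degree 3 over measured genes. The calculations were tested on simulated data. Alternatives were DESeq2 1.42.0 size factors, no scaling, other filters, a prior count of 5, FPKM ratios with a pseudocount of 0.1, trend removal, halved counts and other memberships of the role groups. Some marker and overlap results are not reported here.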

Additional observations from a re-analysis of the deposited data

How the results depend on the processing

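Under the alternatives run, the medians of the mitotic and transport kinesins moved by less than the counting error of a typical single gene of their group. The difference of these medians stayed within limits built from the same single-gene intervals. The counting error of a median itself was not computed. The mitotic kinesins past 1.5-fold toward activin A were 5 to 7, and the kinetochore proteins 5 to 6. The transport kinesins past 1.5-fold toward TGFβ1, 3 as reported, were 4 with no filter, 2 when a mean of 5 CPM was required and 2 by FPKM. The difference of medians ranged from 0.55 to 0.57. The number of members that differed 2-fold or more, 2 as reported, was 4 with no filter, 1 when a mean of 5 CPM was required and 1 with a prior count of 5. The median log2 ratio of the inner kinetochore proteins was 0.14 with the length and GC trend removed, in place of 0.30. Single members moved both ways, and the cause was not tested. Of the 50 members named by the rule, 5 moved beyond their counting interval by FPKM and 10 with the trend removed. Without Kif3c, an alternative chosen after seeing the data, the transport median was 0.014 and 2 transport kinesins still differed 1.5-fold or more toward TGFβ1. The depth leaves Kifc2 and the members under 1 CPM with wide intervals. No paired analysis was possible because each condition has 1 library, and for the same reason no library could be left out.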
